A study of Homo sapiens with 18 samples.

Results

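The cytosolic ribosomal protein genes code for the proteins of the small 40S (RPS genes) and large 60S (RPL genes) ribosomal subunits. They were taken from a table of nascent-RNA readthrough reads as the gene symbols that begin with RPL or RPS and follow the ribosomal protein naming pattern, after the transcripts were matched to GENCODE 44. The pattern found 75 members among 13051 transcripts, 47 RPL and 28 RPS genes, and they held 16895 of the 447434 readthrough reads (3.78%). The pattern also took in RPSA, RPLP0, RPLP1, RPLP2 and the paralogs RPL7L1, RPL22L1, RPL26L1, RPL36AL and RPL39L. Mitochondrial ribosomal proteins and pseudogenes fell outside it. In the annotation 10 more symbols fit the pattern (among them RPL10L, RPL22, RPL26, RPL35A, RPL37A, RPL3L, RPS27, RPS27L and RPS7), and they were not analysed here.

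All cells were K562, an established chronic myeloid leukemia line driven by the fusion kinase Bcr-Abl1. Chromatin-associated RNA depleted of polyadenylated and ribosomal RNA was sequenced as PacBio long reads in 18 libraries, 3 biological replicates for each of 6 groups. CTRL and CTRLim were untreated cells, and CTRLim was prepared together with the imatinib libraries. KCl 45min was hyperosmotic shock with 110 mM KCl for 45 min, and JTE 1h was 5 µM JTE-607, an inhibitor of the cleavage endonuclease CPSF73, for 1 h. IM 1h and IM 18h were 1 µM imatinib, which inhibits Bcr-Abl1, for 1 h and 18 h.

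Ribosomal protein genes are among the most actively transcribed genes of a growing cell. Their mRNAs begin with a 5′ terminal oligopyrimidine (TOP) tract, through which growth signaling controls their translation, and most end soon after the stop codon. The 3′ end of an mRNA is made when the cleavage complex recognizes a poly(A) signal, usually AATAAA or ATTAAA, and CPSF73 cuts the RNA behind it. When cleavage is late or fails, RNA polymerase II transcribes on into the downstream region, and the uncut RNA is a readthrough transcript. K562 cells have erythroid character, and loss-of-function mutations in many of these genes cause Diamond-Blackfan anemia, a failure of red cell production.

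For each gene the authors state that they used the annotated transcript reaching farthest downstream. A read counted as readthrough here when it overlapped the last exon of this transcript and ended beyond a limit 100 nt downstream of its end. That end was within 100 nt of the canonical 3′ end in 59 of the 75 members (78.7%, against 85.9% of all matched transcripts) and over 1000 nt past it in 13 (17.3% against 9.8%). From the stop codon to the counted end the median genomic distance was 279 nt in the members (409 nt in RPL and 228 nt in RPS genes) and 1521 nt in all matched transcripts. In the members, 74 of 75 held an AATAAA or ATTAAA between the stop codon and the counted end on the sense strand, the first of them AATAAA in 65 and ATTAAA in 9. Counted from the first base of the stop codon, this first hexamer began at a median of 29 nt. AATAAA stood in the last 50 nt before the counted end in 44 members (58.7%, against 60.4% of all matched transcripts).

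The first hexamers of 7 members are shown because they place the counted ends of the genes that the results turn on. Each window is 30 nt on the sense strand of GRCh38, the hexamer is in capitals, and all lie in the last exon of the counted transcript.
RPL38: gaactgtattatATTAAAatactaaaaatc
RPL41: taacaaccatatAATAAAtcacctcttccg
RPL32: gttttctgtttaAATAAAtgtaaaaactgc
RPL35: gggcgcattgtcAATAAAgcacagctggct
RPL3: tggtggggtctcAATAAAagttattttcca
RPS27A: actgtatgagttAATAAAagacatgaacta
RPS19: ccatgctgggttAATAAAttgcctcattcg
The window of RPL38 is chr17:74209847-74209876 on the plus strand, in the gene from 74203582 to 74210655, and the counted end lies 791 nt behind its hexamer. The RPL41 window is chr12:56117778-56117807 on the plus strand, with the counted end 172 nt behind and the start of ESYT1 283 nt past that end. RPL32 is on the minus strand with its window at chr3:12836049-12836078 and its counted end 1576 nt behind. RPS27A has its window at chr2:55235577-55235606 on the plus strand and its counted end 259 nt behind. The window of RPS19 (chr19:41871384-41871413, plus strand) lies 1524 nt before the counted end. In RPL35 (chr9:124857887-124857916, minus strand) and RPL3 (chr22:39312888-39312917, minus strand) the hexamer is 19 nt and 18 nt before the counted end.

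Over all members the first hexamer was within 50 nt of the counted end in 29 genes, farther upstream in 45, and over 1000 nt upstream in 25. A read that passed the first hexamer but ended before the counted boundary was not a readthrough read. If cleavage follows a distant first hexamer, the count covers only the longer part of the readthrough. Which hexamer is used was not tested. The boundary lay inside another annotated gene of the same strand in 3 members, RPS10 (RPS10-NUDT3), RPL17 (RPL17-C18orf32) and RPL36A (RPL36A-HNRNPH2), where reads cannot be assigned with certainty. Many ribosomal protein genes also have near-identical processed pseudogenes. The authors kept no secondary alignments and removed entries with duplicate read names. How reads that fit both a gene and its copy were placed was not examined, so the counts of members with such copies are uncertain.

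**Figure D1:**
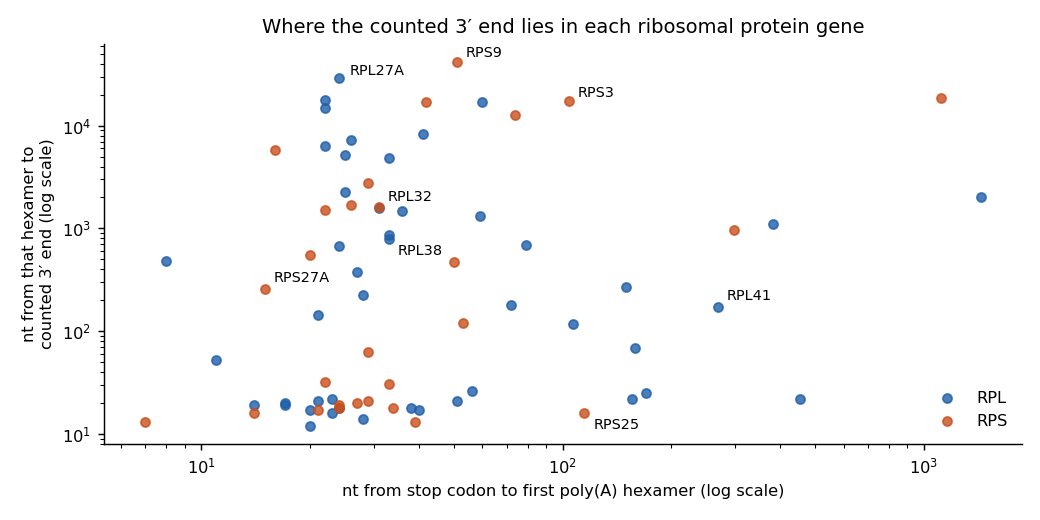
Distance in nt from the stop codon to the first AATAAA or ATTAAA (x axis, log scale) and from that hexamer to the counted 3′ end (y axis, log scale) for 74 members, RPL genes in blue and RPS genes in orange. A group of 29 genes lies within 50 nt of the counted end, and 25 genes lie above 1000 nt.

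The libraries held 229855 to 1349556 reads, the total that served as library size, and 265 to 2845 readthrough reads of ribosomal protein genes each. Per member the reads over all libraries ranged from 0 in RPL28 to 1111 in RPS12, with a median of 153, against a median of 10 for all transcripts. Of the members, 61 had at least 30 reads in all and 35 had a read in every library. The 10 members with most reads, among them RPS12, RPSA (885 reads), RPL13A (831), RPL41 (803), RPL7 (711), RPL7A (678), RPL10A and RPL32 (616 each) and RPL3 (570), made up 44.2% of the members' reads. The mapped share of raw reads parted the libraries into 2 sets, CTRL, KCl 45min and JTE 1h at 40.5% to 44.1%, and CTRLim, IM 1h and IM 18h at 84.3% to 91.6%. Of 10 erythroid marker genes 9 were in the table and all 9 had reads. Over all libraries HBG1 (4159) and HBE1 (2768) held most of them. TAL1 had 408, and the others ranged from 1 in HBZ to 121 in LMO2, so the sum mostly follows these globin genes. Their summed level, in readthrough reads per 1000000 library reads (RPM), was 1200.1 to 1271.3 in IM 18h, 453.6 to 835.3 in CTRLim and 706.5 to 725.1 in IM 1h. In the other set it was 357.6 to 409.3 in CTRL, 71 to 248.4 in KCl 45min and 215.2 to 322.1 in JTE 1h. Markers of lymphoid, fibroblast and epithelial cells summed to at most 21.9 in any library, from 4 of 10 genes, with COL1A2 and PDGFRB at 0. The part of these shifts in the results was not tested. A chi-square test over transcripts with at least 10 reads in a pair of libraries found no difference between CTRLim replicates 2 and 3 (p = 0.27, 835 transcripts) or between any pair of IM 1h libraries (p = 0.0659 to 0.722, 1323 to 1586 transcripts), while every other pair of replicates differed beyond counting noise. The labels call all of them biological replicates, but libraries this close may not be independent. The fits used all 3 libraries as planned, and for imatinib at 18 h the counts of calls and the values of a few genes are also given with CTRLim 2 and 3, or the IM 1h libraries, counted as 1 sample, a choice made after the data were seen. No SD is given for these groups. Gene body reads were not used, so a level in RPM mixes transcription with cleavage, and fewer cells or less RNA per cell cannot be told apart in bulk RNA.

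Summed over the members, readthrough was higher than in CTRL in 2 of 3 JTE 1h libraries and lower in KCl 45min, and it was lower in IM 18h than in CTRLim and IM 1h. The CTRL libraries held 1380.6, 1522.7 and 1527.5 RPM. In KCl 45min the values were 893.7, 844.4 and 746.5, all below the CTRL libraries, and the ratio of the means was 0.561. In JTE 1h they were 1410.2, 2845.0 and 2479.3, so that replicate 1 lay inside the CTRL range and the other libraries above it, with a ratio of 1.52 for 3 libraries and 1.8 without replicate 1. The CTRLim libraries held 1957.8, 1597.9 and 1572.2, all above the CTRL libraries, and the IM 1h libraries 1793.4, 1760.2 and 1833.7, inside that range. In IM 18h the sum was 727.7, 969.9 and 965.5, below every CTRLim and IM 1h library, at 0.519 of the CTRLim mean and 0.494 of the IM 1h mean. No test was made for sums, because the members had been chosen with results known.

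As a share of all readthrough reads the members showed how far they moved apart from other genes. The share was 4.35% ± 0.228 (SD, n = 3 libraries) in CTRL, 3.42% ± 0.25 in KCl 45min and 4.93% ± 0.333 in JTE 1h, each n = 3. It was 4.41%, 4.21% and 4.09% in the CTRLim libraries, 4.1%, 4% and 4.18% in IM 1h, and 2.4% ± 0.361 (SD, n = 3) in IM 18h. The IM 18h libraries, at 1.98%, 2.6% and 2.62%, lay below the lowest of all other libraries, 3.15%. RPL and RPS sums moved the same way in KCl 45min and IM 18h, where every treated library lay below its untreated controls. In KCl 45min the RPL sum stood at 0.584 and the RPS sum at 0.521 of CTRL, and in IM 18h at 0.505 and 0.546 of CTRLim. In JTE 1h the sum of all members overlapped CTRL through replicate 1. There the RPL sum was 1.61 times and the RPS sum 1.37 times CTRL, while per readthrough read these were 1.2 and 1.02.

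**Figure D2:**
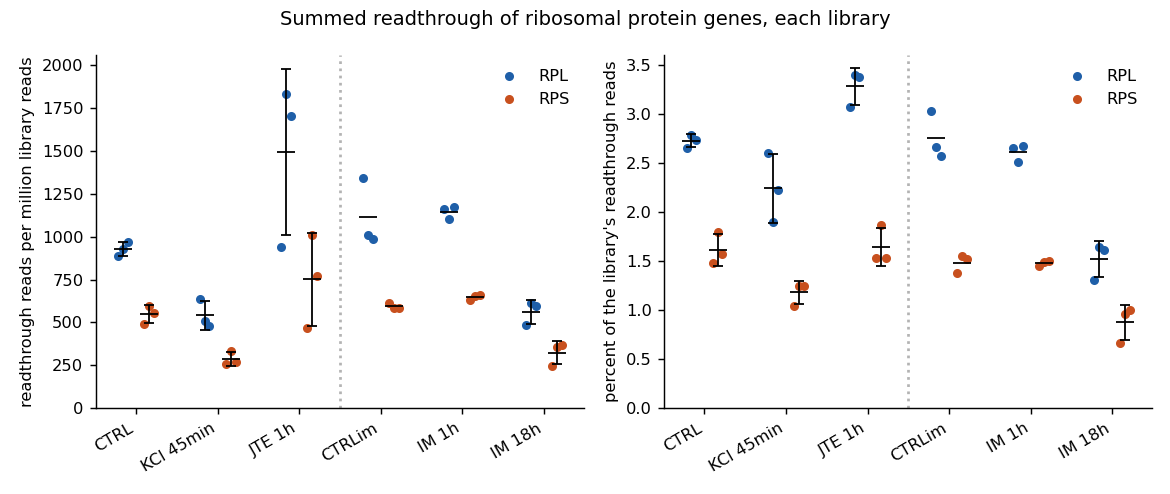
Readthrough reads summed over RPL (blue) and RPS (orange) genes in each library, in RPM (left) and in percent of the readthrough reads of the library (right). Points are libraries, ticks are means, bars are the SD of 3 libraries (none for CTRLim and IM 1h), and the dotted line parts the 2 library sets. Both subunits are low in KCl 45min and IM 18h on the left, and IM 18h is the lowest group on the right.

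JTE-607 tests what happens when the cleavage step itself is inhibited. RPL38, a large subunit protein known for its role in the translation of Hox mRNAs in the mouse, was the member that rose. It had 22.2, 19.5 and 19.3 RPM in CTRL and 67.5, 147.8 and 139.4 in JTE 1h. Every JTE 1h library was above every CTRL library, and replicate 1 was the lowest as in the sum. The log2 fold change was 2.53 (SE 0.534, adjusted p = 0.0406, edgeR's quasi-likelihood test, Benjamini-Hochberg adjusted over 969 transcripts). It was the 1 call in 53 members tested, and also the 1 call in all 969 transcripts (0.103%). The call was lost in 8 of 14 alternatives, with adjusted p from 8.69e-05 to 0.504 by edgeR or DESeq2 over all of them.

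Several members had higher levels without passing the adjustment. RPL8, which lies at the peptidyl transferase center of the large subunit, had 8.32, 2.44 and 3.87 RPM in CTRL and 19.6, 42.8 and 37.5 in JTE 1h (log2 fold change 2.73, SE 0.73, edgeR adjusted p = 0.226). RPS19, the gene most often mutated in Diamond-Blackfan anemia, had 30.5, 7.31 and 3.87 in CTRL and 56.6, 70 and 61.9 in JTE 1h (2.11, SE 0.607, adjusted p = 0.226 by edgeR). With all 18 libraries in the fit both genes were called, at an adjusted p of 0.0145 each by edgeR. In both genes the groups did not overlap, and the CTRL libraries of RPS19 differed among themselves by more than its JTE 1h libraries. RPL8 had 5 reads in CTRL and 74 in JTE 1h, and RPS19 had 15 and 133. Both thus passed the minimum of 30 reads through JTE 1h. At an unadjusted p under 0.05, 11 members were higher and 0 lower, beside 105 and 3 of the 969 transcripts. Groups did not overlap, with JTE 1h higher, in 11 of 53 members, beside 12% of the transcripts tested, and in 0 members with JTE 1h lower, beside 1.86%. The median log2 fold change was 0.58 in the members and 0.49 in all tested, and after TMM scaling of readthrough reads, which takes out a shift that most genes share, 0.11 and 0.04.

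Leaving out JTE 1h replicate 1, in which 3.06% of reads were readthrough reads against 5.4% and 5.05% in the others, gave 10 member calls in edgeR, all higher. These were RPL38, RPL8, RPL7, RPS19, RPL34, RPL35, RPS21, RPS23, RPL22L1 and RPL7A, with log2 fold changes from 1.35 in RPL7A to 2.97 in RPL8. The fit then had 75 calls in all transcripts, and replicate 1 was singled out after its values were seen. RPL41 had 115.3, 101.1 and 108.9 RPM in JTE 1h, above 77.6, 90.1 and 23.2 in CTRL, and did not pass (log2 fold change 0.74, SE 0.491, edgeR adjusted p = 0.601). RPL32 at 0.30 (SE 0.503) and RPS27A at 0.39 (SE 0.544) did not pass either, and both turned below 0 after TMM scaling, at -0.21 and -0.06.

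**Figure D3:**
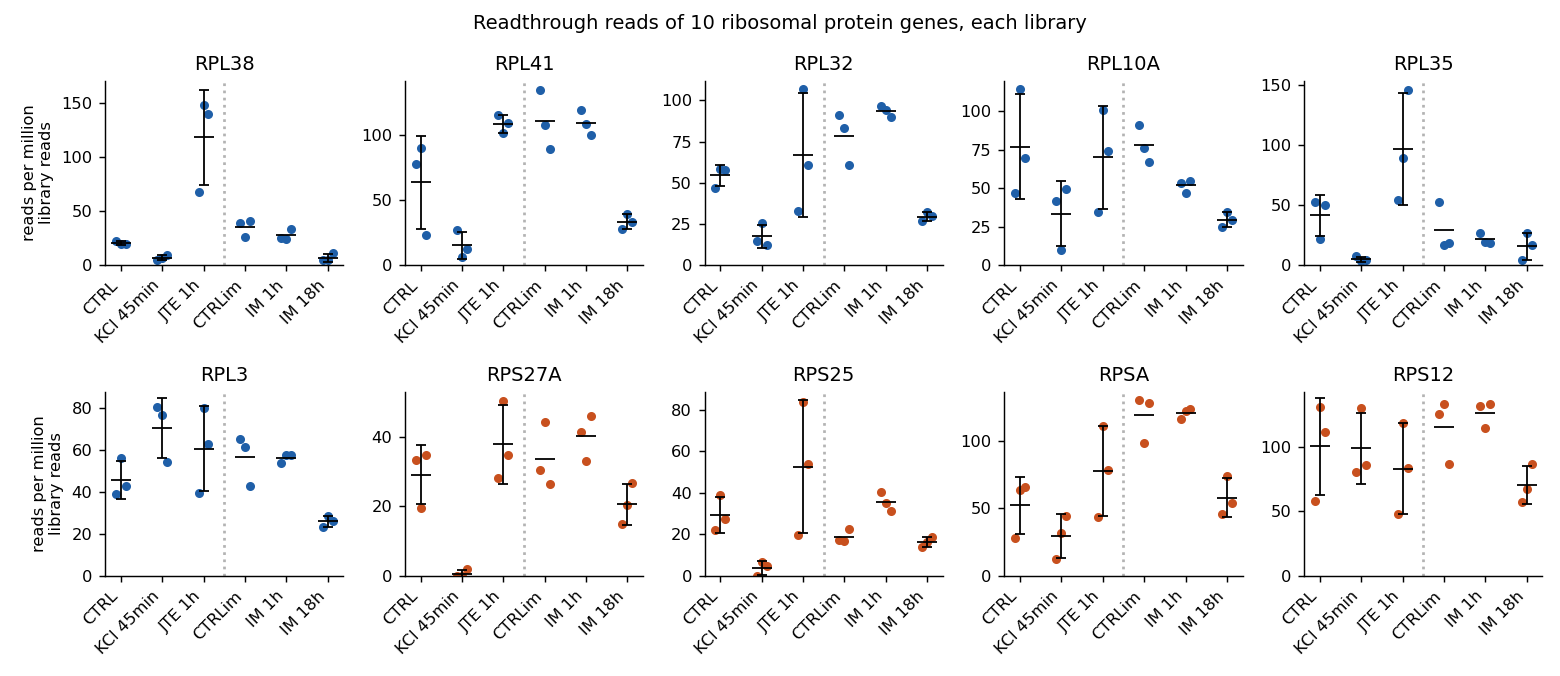
Readthrough level in RPM of 10 members in each library (points), with the mean (tick) and SD of 3 libraries (bar, none for CTRLim and IM 1h), RPL genes in blue and RPS genes in orange, and the dotted line between the 2 library sets. RPL38 and RPL35 are highest in JTE 1h, RPS27A is at or near 0 in KCl 45min, and RPL41, RPL32, RPL10A and RPL3 are low in all IM 18h libraries.

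Hyperosmotic KCl is a stress known to cause readthrough at many genes, and most ribosomal protein genes tested had lower levels there. In these libraries readthrough reads of all genes were also fewer. They made up 2.46%, 2.68% and 2.15% of library reads in KCl 45min, against 3.33%, 3.32% and 3.55% in CTRL. Of 34 members with at least 30 reads over the 6 libraries, 13 fell (38.2%, beside 20.9% of the 378 transcripts tested) and 1 rose (2.94%, beside 4.23%). The median log2 fold change was -1.21 in the members and -0.39 in all tested. Groups did not overlap, with KCl 45min lower, in 20 of 34 members, beside 28% of the transcripts, and with KCl 45min higher in 1, beside 7.67%. The other 41 members had too few reads for the test. By subunit 6 of 20 RPL genes and 7 of 14 RPS genes fell. With the readthrough total of a library as its size, the medians were -0.71 and 0.11, and 8 members fell, beside 44 of the 378 transcripts.

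RPS27A, which is made as a fusion of ubiquitin with a small subunit protein, fell most. It had 12, 8 and 9 reads in the CTRL libraries and 0, 0 and 2 in KCl 45min, although KCl replicate 3 was the deepest of those 6. The ratio of the pooled levels was 25.1 (95% exact interval 6.34 to 217, counting error only), and edgeR gave an adjusted p of 3.91e-05. RPL35, which sits at the exit of the peptide tunnel, had 52.7, 21.9 and 50.3 RPM in CTRL and 7.31, 3.19 and 3.79 in KCl 45min (log2 fold change -3.08, SE 0.624, edgeR adjusted p = 0.000131). RPS25, a small subunit protein needed for some kinds of internal initiation, had 22.2, 39 and 27.1 in CTRL and 0, 6.37 and 4.74 in KCl 45min (-2.87, SE 0.688, edgeR adjusted p = 0.0012). In these genes no KCl library reached a CTRL library, and all 3 calls held in each of 14 alternatives.

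RPS26, at the mRNA exit channel and a Diamond-Blackfan gene, was at 13.9, 34.1 and 38.7 RPM in CTRL and at 4.87, 3.19 and 3.79 in KCl 45min. RPS14, whose loss underlies the anemia of the 5q- syndrome, fell by 2.50 on the log2 scale, RPS21 by 2.27 and RPL32 by 1.72, with edgeR adjusted p-values of 0.00344, 0.00382 and 0.0102. RPL41, the smallest ribosomal protein, had 77.6, 90.1 and 23.2 RPM in CTRL and 26.8, 6.37 and 12.3 in KCl 45min. It fell by 2.09 on the log2 scale (SE 0.547, edgeR adjusted p = 0.00283), though the groups overlapped through CTRL replicate 3. The call was lost in 4 of 14 alternatives for RPL32, in 2 for RPL41 and in 1 each for RPS26, RPS14 and RPS21. RPL38 had 4.87, 6.37 and 9.47, below all CTRL libraries, and did not pass (-1.40, SE 0.623, edgeR adjusted p = 0.0982).

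The member that rose in KCl was RPL8, at 34.1, 19.1 and 18 RPM against 8.32, 2.44 and 3.87 in CTRL (log2 fold change 2.19, SE 0.718, edgeR adjusted p = 0.018). The call was lost in 5 of 14 alternatives, with DESeq2, with no filter, and without CTRL replicate 2, CTRL replicate 3 or KCl replicate 1. Among abundant members RPS12 stood at 80.4, 130.6 and 86.2 in KCl 45min and 58.2, 131.6 and 112.1 in CTRL, with overlapping groups (-0.04, SE 0.485). RPL3, next to the peptidyl transferase center, was at 80.4, 76.5 and 54 against 38.8, 56 and 42.5, and RPL13A at 112.0, 66.9 and 66.3 against 63.8, 60.9 and 92.8. Their log2 fold changes were 0.59 (SE 0.483) and 0.18 (SE 0.481), and neither passed. Of the P stalk, which recruits elongation factors, RPLP0 (0.18, SE 0.517) and RPLP1 (-0.19, SE 0.51) were tested and neither passed.

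The 13 members whose counted end lies over 1000 nt past the canonical end, a set looked at after its values were seen, had another pattern in their sum. They are RPL10, RPL15, RPL27A, RPL28, RPL30, RPL31, RPL34, RPS3, RPS4X, RPS9, RPS20, RPS24 and RPS29. Their summed level was 8.32, 9.75 and 3.87 RPM in CTRL, 41.4, 60.5 and 42.6 in KCl 45min, and 41.3, 60.3 and 37.5 in JTE 1h. In the other set it was 13.1, 11.1 and 8.13 in CTRLim, 16.3, 10.5 and 26.2 in IM 1h, and 12.8, 11 and 22.2 in IM 18h. Thus they gave 0.527% of the members' readthrough reads in CTRL, 5.7% in KCl 45min and 1.88% in JTE 1h. These are 289 reads in all, with a median of 9 per gene, and no test was made on the set. RPL34 alone gave 133 of them, with 52 of 93 in JTE 1h, 34 of 56 in IM 18h and 13 of 81 in KCl 45min. RPS3 gave most in KCl 45min, 26 reads, and 4 in JTE 1h, so different genes led the sums of these groups. RPS3 had 7, 8 and 11 reads in KCl 45min and 0, 2 and 1 in CTRL, a ratio of 5.01 of the pooled levels (95% exact interval 1.54 to 25.9). All 9 reads of RPL27A, all 3 of RPL10 and all 3 of RPS9 came from the KCl libraries. RPS20 had 14 reads in KCl 45min (1, 3 and 10 by library), 18 in JTE 1h (5, 9 and 4) and 0 in CTRL. Against a floor of 3 reads in the CTRL group, its level was 2.7-fold higher in KCl 45min and 2.91-fold higher in JTE 1h. These ratios take the reads of the treated groups as exact.

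JTE 1h and KCl 45min come from 1 library set and could be compared directly, in a comparison added after the data were seen. Of 55 members tested, 32 were higher in JTE 1h (58.2%, beside 34.1% of 999 transcripts) and 1 was lower (beside 1.2%). Groups did not overlap in 36, 35 higher and 1 lower in JTE 1h, beside 37.7% and 2.8%. The median log2 difference was 1.95 in the members and 1.21 in all tested. The minimum of 30 reads was taken over both groups, so members with few reads in 1 group could enter through the other. RPS19 entered through JTE 1h (133 reads, against 2 in KCl 45min) and RPS3 mostly through KCl 45min (26 reads, against 4 in JTE 1h). The counts and the order of genes include such members. RPS19 differed most by edgeR's adjusted p, with 26, 36 and 71 reads in JTE 1h and 1, 0 and 1 in KCl 45min (5.57, SE 0.885, adjusted p = 6.46e-08). RPL35 (4.35, SE 0.707) and RPL38 (3.97, SE 0.658) followed, with edgeR adjusted p-values of 1.19e-07 and 2.18e-07. RPS3 was the member lower in JTE 1h (-3.00, SE 0.902, edgeR adjusted p = 0.00478). By subunit 22 of 34 RPL genes and 10 of 21 RPS genes were higher.

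Imatinib for 1 h asks for the early response to kinase inhibition. Of 42 members tested against CTRLim, 0 were called by edgeR, beside 1.52% of 988 transcripts (0.202% higher and 1.32% lower), and DESeq2 also called 0. At an unadjusted p under 0.05, 3 were higher and 2 lower, beside 86 and 45 of the 988 transcripts, and the median log2 fold change was 0.14 in the members and 0.19 in all tested. Groups did not overlap in 6 members, 5 higher and 1 lower, beside 13% and 5.47% of the transcripts. RPL5, which with RPL11 binds the 5S rRNA, had the smallest p (log2 fold change 0.89, SE 0.335, adjusted p = 0.208, edgeR), and RPS25 had an adjusted p of 0.212 by edgeR (0.88, SE 0.349). RPL41 had 118.9, 108.2 and 99.7 RPM in IM 1h and 134.9, 107.4 and 89.4 in CTRLim. Its log2 fold change was 0.03 (SE 0.211) and turned to -0.15 after TMM scaling. RPL32 (0.29, SE 0.222), RPS27A (0.23, SE 0.291) and RPL38 (-0.27, SE 0.316) did not pass.

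At 18 h of imatinib many members were lower. Of 41 tested against CTRLim 15 fell (36.6%, beside 8.95% of 1386 transcripts) and 0 rose (beside 5.19%). The median log2 fold change was -0.80 in the members and -0.01 in all tested, and 38 of 41 were below 0. By subunit 9 of 25 RPL and 6 of 16 RPS genes fell. The summed erythroid markers, mostly HBG1 and HBE1 reads, were higher in these libraries, as given above. With CTRLim replicates 2 and 3 as 1 sample 12 members fell, beside 97 of the 1386 transcripts. With DESeq2's own size factors 4 did, beside 44, and with all 18 libraries in the fit 7, beside 67.

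RPL41 had 27.7, 39.1 and 33.3 RPM in IM 18h against 134.9, 107.4 and 89.4 in CTRLim, so the highest treated library was well under the lowest control. Its log2 fold change was -1.67 (SE 0.257, edgeR adjusted p = 5.4e-06). RPL38 had 4.26, 4.7 and 11.1 against 39.2, 25.9 and 40.6 (-2.28, SE 0.405, edgeR adjusted p = 6.02e-05). RPL32 had 26.6, 32.1 and 29.6 against 91.4, 83.3 and 60.9 (-1.37, SE 0.272, edgeR adjusted p = 0.000281). The groups did not overlap in these 3 genes, and the calls held in each of 15 alternatives, with adjusted p-values of 0.000129, 0.000472 and 0.00193 by edgeR when CTRLim 2 and 3 were 1 sample. Over all members the IM 18h libraries lay below CTRLim in 24 of 41, beside 18.4% of the transcripts, and above in 0, beside 13.3%.

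RPL10A (-1.35, SE 0.272, edgeR adjusted p = 0.000355) also held in each of 15. RPL13A and RPL3 (both -1.08), RPSA, also known as the laminin receptor (-1.01), RPS6, the substrate of S6 kinase (-1.39) and RPS21 (-1.17) fell with edgeR adjusted p-values of 0.00243, 0.00854, 0.00284, 0.00554 and 0.0136. Each of these calls was lost in 2 to 4 of 15 alternatives. RPS12, with the most reads of all members, had 57.4, 67.3 and 86.7 RPM against 126.2, 133.3 and 87.3 and fell by 0.69 (SE 0.243, edgeR adjusted p = 0.0463), a call lost in 13 of 15 alternatives, TMM scaling and DESeq2 among them. RPS27A, the gene that fell most in KCl, had 14.9, 20.4 and 26.7 against 30.5, 44.4 and 26.4 and did not pass (-0.71, SE 0.348, edgeR adjusted p = 0.175). RPL35, at 4.26, 26.6 and 16.3 against 52.2, 16.7 and 18.3, did not pass either (-0.59, SE 0.446).

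**Figure D4:**
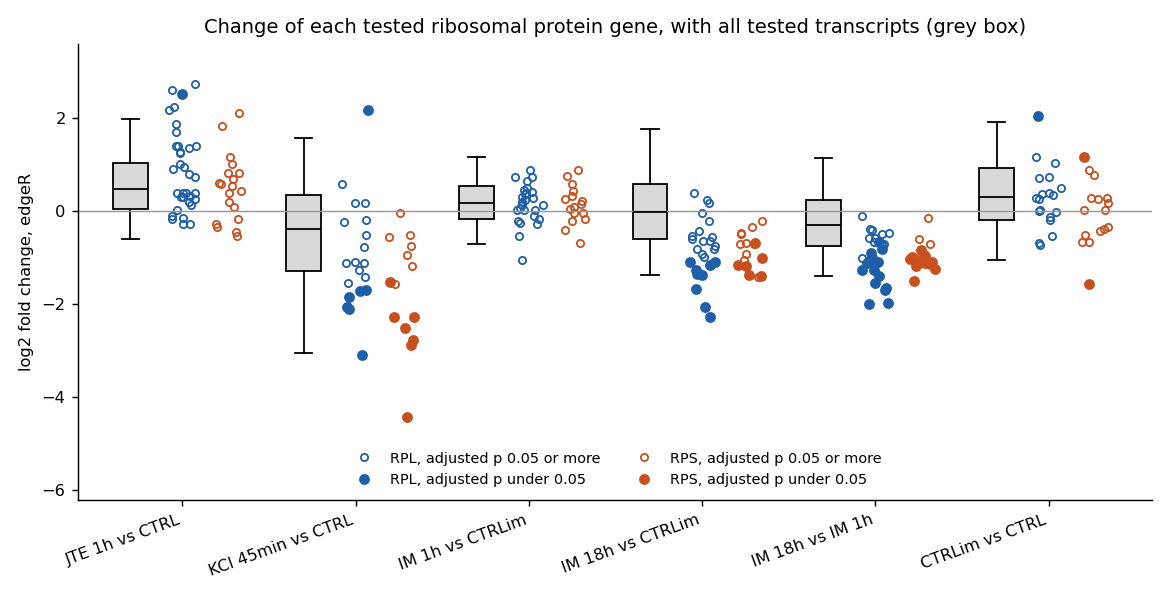
Log2 fold change (y axis, edgeR) of each tested member in 6 comparisons, RPL in blue and RPS in orange, filled where the adjusted p is under 0.05, beside a grey box for all transcripts tested (median, quartiles, and whiskers from the 5th to the 95th percentile). Filled points lie below 0 in both IM 18h comparisons, while KCl 45min has 1 filled point above 0 and 13 below.

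Between the imatinib times the decrease was larger in count, with the IM 18h libraries shared with the comparison before. Of 43 members tested 28 were lower in IM 18h than in IM 1h (65.1%, beside 14.1% of 1720 transcripts) and 0 higher (beside 4.19%). All 43 log2 differences were below 0, with a median of -1.01 beside -0.30 in all tested. After TMM scaling 41 of 43 were below 0 and 15 were called lower, beside 92 of the 1720 transcripts lower and 111 higher. The IM 18h libraries lay below IM 1h in 32 members, beside 26.3% of the transcripts, and above in 0, beside 8.49%. With the IM 1h libraries as 1 sample the median log2 difference was -1.01 in the members and -0.30 in all tested. RPL41 differed by -1.68 (SE 0.19, edgeR adjusted p = 1.42e-12) and RPL32 by -1.65 (SE 0.2, edgeR adjusted p = 2.69e-11). With IM 1h as 1 sample these p-values were 1.19e-05 and 3.58e-05. In RPL32 the IM 1h libraries were at 96.6, 94.2 and 89.7 RPM and the IM 18h libraries at 26.6, 32.1 and 29.6. RPSA, RPL38, RPL13A, RPS12, RPL7A, RPL3 and RPL12 were also among the 10 with the smallest adjusted p, with log2 differences of -1.04, -1.99, -1.01, -0.84, -0.90, -1.11 and -1.39. RPS27A fell here (-0.95, SE 0.273, edgeR adjusted p = 0.00757), a call lost in 7 of 15 alternatives, the one with IM 1h as 1 sample among them (adjusted p = 0.0767, edgeR). Both proteins of the 5S particle fell, RPL5 by 1.08 and RPL11 by 1.04 on the log2 scale, calls lost in 5 and 8 of 15 alternatives. Against CTRLim neither passed, with log2 fold changes of -0.20 (SE 0.408, edgeR adjusted p = 0.793) and -0.80 (SE 0.371, edgeR adjusted p = 0.151).

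KCl 45min and IM 18h have separate controls, and their calls could be set side by side. Of 33 members tested in both, 4 fell in both, RPL32, RPL41 and RPS21 among them, which is 30.8% of the 13 of these that fell in KCl and 30.8% of the 13 that fell at IM 18h. Of all 346 transcripts tested in both, 24 fell in both, 30.8% of the 78 that fell in KCl and 30.4% of the 79 that fell at IM 18h. The difference between the changes was tested over 2007 transcripts, in a comparison added after the data were seen. Here the minimum of 30 reads was taken over KCl 45min, CTRL, IM 18h and CTRLim together. Members with too few reads for the KCl test could thus enter through the imatinib set. It was called in 6 of 53 members, beside 8.47% of the transcripts, 5 with a lower change in KCl (9.43%, beside 7.42%) and 1 with a higher one (1.89%, beside 1.05%). The median difference was -0.44 in the members and -0.60 in all tested, so a lower change in KCl was not particular to the members. The change was lower in KCl than with imatinib in RPS27A (-3.75, SE 0.917, edgeR adjusted p = 0.00228) and RPS25 (-2.67, SE 0.779). The same held for RPL35 (-2.49, SE 0.737), RPL21 (-3.20, SE 1.01) and RPS26 (-2.45, SE 0.785). RPL21 had too few reads for the KCl test, 3 in KCl 45min and 16 in CTRL, and entered mostly through IM 18h (35 reads). RPL3 differed the other way (1.65, SE 0.55, edgeR adjusted p = 0.0369), with a KCl change of 0.59 and an imatinib change of -1.08. The library set goes with the treatment here and cannot be told apart from it.

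**Figure D5:**
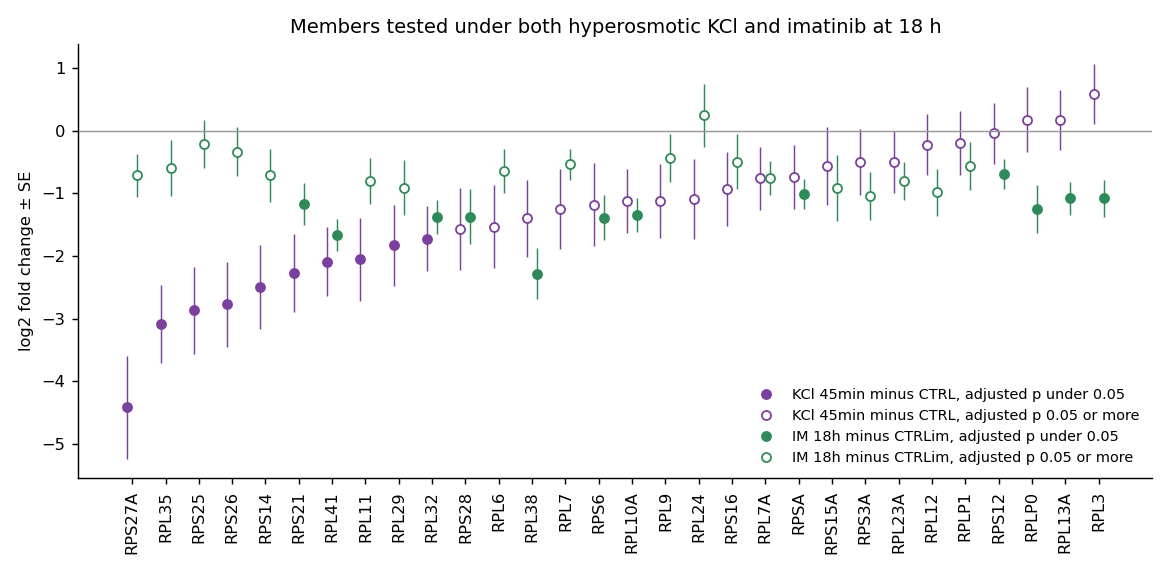
Log2 fold change ± SE of 30 of the 33 members tested in both KCl 45min against CTRL (purple) and IM 18h against CTRLim (green), ordered by the KCl value and filled where the adjusted p is under 0.05. RPS27A, RPL35 and RPS25 stand far lower in KCl than in IM 18h, and RPL3, RPL13A and RPLP0 are above 0 in KCl and lower in IM 18h.

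CTRLim and CTRL were both untreated, so their difference shows how far the 2 library sets lay apart without a treatment. The cells and the library preparation cannot be told apart in it. Of 35 members 2 were higher in CTRLim (5.71%, beside 10.2% of 472 transcripts) and 1 lower (2.86%, beside 0.424%). Groups did not overlap in 7 members, 5 higher and 2 lower, beside 25.8% and 6.36% of the transcripts. RPL7 had 108.8, 85.2 and 81.3 RPM in CTRLim and 19.4, 24.4 and 19.3 in CTRL (log2 difference 2.06, SE 0.361, edgeR adjusted p = 0.00208), and it kept its call in each of 15 alternatives. RPSA was also higher (1.18, SE 0.36, edgeR adjusted p = 0.0422), a call lost in 11 of 15 alternatives. RPL38 (0.75, SE 0.393), RPL41 (0.71, SE 0.387), RPL32 (0.50, SE 0.329) and RPS27A (0.28, SE 0.39) did not pass, and RPS27A turned below 0 after TMM scaling, at -0.11.

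Smaller groups of members were described by their counts. Of 19 Diamond-Blackfan genes 14 were in the table. In KCl 45min 3 of 5 tested fell (RPL11, RPL35 and RPS26), beside 20.9% of all transcripts. At IM 18h against CTRLim 2 of 8 fell (RPS10 and RPS28), beside 8.95%, and these calls were lost in 13 and 9 of 15 alternatives. Between the imatinib times 5 of 8 fell, beside 14.1%. The call of RPL11 in KCl was lost in 8 of 14 alternatives. The medians were -2.05, -0.85 and -1.06. Of the P stalk, RPLP0 fell at IM 18h (-1.25, SE 0.389, edgeR adjusted p = 0.0223), a call lost in 7 of 15 alternatives, and RPLP1 did not pass (-0.56, SE 0.388). Among the paralogs RPL22L1, which can replace RPL22 in the ribosome, fell at IM 18h (-2.06, SE 0.605, edgeR adjusted p = 0.0148) with overlapping groups, a call lost in 5 of 15. Members with a snoRNA gene in the host gene, 28 of 75, numbered 14 of those tested at IM 18h, and 6 fell, against 9 of 27 without one. In KCl 45min 3 of 11 with and 10 of 23 without a snoRNA gene fell. With the first hexamer within 50 nt of the counted end 5 of 16 tested members fell in KCl, and 8 of 17 with it farther upstream, where the medians were -1.01 and -1.51. None of these splits was tested as a difference.

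The naming pattern missed some ribosomal proteins, among them FAU, which fuses a ubiquitin-like protein to a ribosomal protein, and RACK1, a scaffold on the 40S subunit. At IM 18h against CTRLim FAU fell (-1.44, SE 0.299, edgeR adjusted p = 0.000532) and RACK1 did not pass (-0.68, SE 0.331, edgeR adjusted p = 0.177). RACK1 fell in KCl 45min (-2.12, SE 0.632, edgeR adjusted p = 0.00892). Of 16 other TOP genes, 7 were tested at IM 18h and 1 fell (beside 8.95% of all transcripts), EEF1A1, the elongation factor that brings aminoacyl-tRNA to the ribosome (-1.15, SE 0.235, edgeR adjusted p = 0.000439), with a list median of -0.68. Between the imatinib times 5 of 8 fell (beside 14.1%), EEF1A1, EIF4B, HNRNPA1, NPM1 and TPT1, with a median of -0.95. In KCl 45min 1 of 4 fell (beside 20.9%), HNRNPA1 (-1.47, SE 0.552, edgeR adjusted p = 0.0394), with a median of -0.14, and 0 of 6 passed in JTE 1h.

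Over the 6 planned comparisons 33 of the 54 members that could be tested in any of them were called in at least 1 (61.1%, beside 22.5% of the 1903 transcripts tested in any), and 21 in none. A gene with more reads could be tested in more comparisons, and the median was 153 reads in members against 10 in all transcripts. Some comparisons also share libraries, so these shares do not measure change alone. RPL32, RPL41 and RPS21 fell in KCl 45min and in both IM 18h comparisons. RPL38 rose with JTE-607 and fell in both IM 18h comparisons.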

How the data were processed

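Readthrough reads were measured in 18 libraries of nascent K562 RNA. The authors trimmed reads with cutadapt, mapped them with minimap2 to GRCh38.p14 and collapsed duplicates by molecular identifier. They removed polyadenylated reads, entries with duplicate read names and splicing intermediates. They deposited raw counts of readthrough reads per transcript, neither normalized nor pooled. Transcripts were matched to GENCODE 44 (12704 of 13051, with 347 not matched), whose 3′ ends equalled the genome sequence used in 12685 of 12685 transcripts with a long enough last exon. Library sizes were the read totals that the study lists after its filters.

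The members and gene lists were chosen with earlier results of these data known. Transcripts with at least 30 reads over the 6 libraries of a comparison were tested with edgeR 4.0.16 (glmQLFit and glmQLFTest, R 4.3.3) and called at a Benjamini-Hochberg adjusted p under 0.05 over all of them. This minimum was taken over both groups, so a gene could pass it through the group where it was high. For the difference between the KCl and IM 18h changes it was taken over the libraries of both comparisons together. Named were RPL38, RPL41, RPL32 and RPS27A, the 10 members with most reads, up to 10 called members in each comparison, and up to 3 with the smallest adjusted p whose groups did not overlap. Results of some genes that these rules take in are not reported here. Other members named, such as RPS3 and RPL11, were chosen after their values were seen or belong to a list. Alternatives were TMM scaling, the readthrough total as library size, DESeq2 1.42.0 with 2 kinds of size factor, a minimum of 10 reads or none, a replicate block, all 18 libraries in the fit, each library left out in turn, and merged libraries. Exact intervals are conditional binomial and cover counting error only. The floor of 3 reads covers counting error only in the group with 0 reads. A chi-square test compared the counts of replicates. CTRLim replicates 2 and 3, and the 3 IM 1h replicates, did not differ beyond counting noise, so an alternative summed each of these sets into 1 sample. P-values that use them separately may be too small. Sums used pandas 2.3.3 and numpy 2.4.6, and plots matplotlib 3.10.9.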

Additional observations from a re-analysis of the deposited data

Results flagged for a closer look

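The change with imatinib differed between 18 h and 1 h in 28 of 43 ribosomal protein genes tested, all lower at 18 h, beside 14.1% of 1720 transcripts lower and 4.19% higher (edgeR's quasi-likelihood test of the difference, Benjamini-Hochberg adjusted). Of the 10 with the smallest adjusted p, 9 had log2 differences of -1.68 in RPL41, -1.65 in RPL32, -1.04 in RPSA, -1.99 in RPL38, -1.01 in RPL13A, -0.84 in RPS12, -0.90 in RPL7A, -1.11 in RPL3 and -1.39 in RPL12. In these 9 the groups did not overlap. With the 3 IM 1h libraries, which agree within counting noise, counted as 1 sample, 16 members were called, where the lone sample is assumed to vary like the IM 18h libraries. The summed erythroid markers, mostly HBG1 and HBE1 reads, were higher in IM 18h than in IM 1h, and their part in the result was not tested.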

How the results depend on the processing

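Under alternatives, member calls with JTE-607 (1) were 0 with TMM scaling, the readthrough total or no filter, 3 with the replicate block and 5 with all 18 libraries, and calls over all transcripts (1) were 0, 0, 0, 4 and 30. With KCl, member calls (14) were 9 with the readthrough total, 4 with DESeq2 on its own size factors and 9 with no filter, and all calls (95) were 62 with DESeq2, 47 on its own size factors and 256 at a minimum of 10 reads. At IM 1h all calls (15) were 4 and 7 with DESeq2, 9 with no filter, 5 with all 18 libraries and 0 with merged libraries, where 1 sample stands against 2. At IM 18h against CTRLim, member calls (15) were 4 on DESeq2's size factors and 7 with all 18 libraries, and all calls (196) were 105, 78 and 113 with DESeq2, its own size factors and all 18 libraries. Against IM 1h, member calls (28) were 15 with TMM, 15 and 4 with DESeq2, 11 with all 18 libraries and 16 merged, and all calls (315) were 203, 108, 63, 112 and 155. For CTRLim against CTRL, member calls (3) were 1 with DESeq2, on its own size factors, with no filter, with all 18 libraries and merged, and all calls (50) were 31 with the readthrough total, 26 and 20 with DESeq2, 86 at a minimum of 10 reads and 21 merged. Per readthrough read the summed log2 ratio was 0.18 with JTE-607, -0.35 with KCl and -0.77 for IM 18h against IM 1h, and it changed sign to -0.05 for IM 1h against CTRLim and -0.04 for CTRLim against CTRL. The causes were not tested.

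Leaving out 1 library gave 0 to 10 member calls and 0 to 75 in all with JTE-607, 9 to 13 and 59 to 90 with KCl, 0 and 9 to 23 at IM 1h, 9 to 13 and 106 to 181 at IM 18h, 16 to 28 and 177 to 276 between the imatinib times, and 1 to 6 and 18 to 91 for CTRLim against CTRL. The summed log2 ratios ranged from 0.40 to 0.85, -0.89 to -0.77, 0.01 to 0.18, -1.01 to -0.82, -1.08 to -0.89 and 0.10 to 0.27 in that order.

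Signs changed in genes without a call. RPL32 with JTE-607 was -0.21, -0.17 and -0.16 with TMM, the readthrough total and DESeq2's size factors, and -0.18 to 0.60 when 1 library was left out. RPL41 at IM 1h was -0.15, -0.12 and -0.14 with the same scalings, -0.00 with all 18 libraries, -0.06 merged and -0.11 to 0.13 when 1 library was left out. RPS27A was -0.06, -0.02 and -0.01 with JTE-607 under the 3 scalings, and for CTRLim against CTRL -0.11 with TMM, -0.12 on DESeq2's size factors and -0.03 to 0.45 when 1 library was left out.

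Replicates of the same number correlated at -0.22 to 0.30 in their deviations from the group means, so the numbers are not taken to pair the libraries. With the replicate block, member calls were 3 with JTE-607 (RPL38, RPL8 and RPS19), 15 with KCl, 0 at IM 1h, 14 at IM 18h, 28 between the imatinib times and 3 for CTRLim against CTRL. In KCl 41 members had too few reads to be tested.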
